A study of Mus musculus with 36 samples.

Results

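The miR-183 cluster is a group of 3 microRNA (miRNA) hairpins, Mir183, Mir96 and Mir182, that lie together on mouse chromosome 6 and on the same strand. Its 6 mature members, mmu-miR-182-5p, mmu-miR-182-3p, mmu-miR-183-5p, mmu-miR-183-3p, mmu-miR-96-5p and mmu-miR-96-3p (the species prefix is left out from here on), were taken by name from a table of read counts of 1915 mature miRNAs. The counts came from small RNA libraries of whole kidneys of C57BL/6 mice that carry floxed alleles of Pkd1 or of Pkd2, the genes mutated in autosomal dominant polycystic kidney disease. Mice with the HoxB7-Cre transgene (Pkd1f/f:HoxB7-Cre and Pkd2f/f:HoxB7-Cre) are called KO, and floxed littermates without Cre (Pkd1f/f and Pkd2f/f) are called WT. Kidneys were taken on postnatal days 1, 3 and 7 (P1, P3 and P7). Line, genotype and age made 12 groups of 3 libraries, 36 in all. HoxB7-Cre deletes in the collecting duct, so the deletion affected part of the cells of the organ, whereas the RNA came from all of them. In such bulk samples, more cells of a type and more of a miRNA per cell cannot be told apart.

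A miRNA hairpin is cut by Drosha and Dicer into a duplex of a 5p and a 3p arm. One arm usually enters an Argonaute protein and guides it to messenger RNAs that pair with its seed, while the other is mostly degraded. The miR-183 cluster is best known from sensory organs, where its members are abundant in hair cells and photoreceptors, and it is also expressed in epithelia.

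The mature sequences show which members could share targets. They were taken from RefSeq (GRCm38.p6), where all 6 members matched by name. The seed, bases 2 to 8 counted from the 5′ end, is in capitals.
miR-183-5p: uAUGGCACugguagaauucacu
miR-96-5p: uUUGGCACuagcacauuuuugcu
miR-182-5p: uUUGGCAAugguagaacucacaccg
miR-183-3p: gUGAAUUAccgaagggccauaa
miR-96-3p: cAAUCAUGuguagugccaauau
miR-182-3p: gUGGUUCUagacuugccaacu
No pair of members had the same seed. miR-96-5p and miR-182-5p had the same bases 2 to 7, whereas miR-183-5p differed from both within this stretch. Over the whole length miR-182-5p had the same base as miR-183-5p at 18 of 22 positions and the same base as miR-96-5p at 12 of 23. Among the 1679 mature miRNAs of the reference table, miR-1271-5p was the 1 other with the seed of miR-96-5p and miR-3475-5p the 1 other with the seed of miR-96-3p. miR-1271-5p was not analysed here, and miR-3475-5p had 0 reads in the 36 libraries.

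The hairpins show how the arms are arranged. They are written in the direction of transcription with both mature arms in capitals (RefSeq, GRCm38.p6). All 3 are on the minus strand, Mir183 at chr6:30169668-30169737, Mir96 at chr6:30169446-30169551 and Mir182 at chr6:30165918-30165992.
Mir183: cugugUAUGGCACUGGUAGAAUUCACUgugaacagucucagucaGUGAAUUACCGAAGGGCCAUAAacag
Mir96: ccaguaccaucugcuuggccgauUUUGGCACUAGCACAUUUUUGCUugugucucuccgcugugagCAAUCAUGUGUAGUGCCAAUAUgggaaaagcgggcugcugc
Mir182: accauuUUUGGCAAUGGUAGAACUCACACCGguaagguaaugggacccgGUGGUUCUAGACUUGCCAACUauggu
The gap between Mir183 and Mir96 is 116 bases and that between Mir96 and Mir182 is 3453 bases, so that the cluster spans 3820 bases. RefSeq places all 3 hairpins within the long non-coding RNA Mirc35hg (chr6:30158640-30174125, minus strand), whose start is 4388 bases upstream of Mir183. The long non-coding RNA Rncr4 of GENCODE M21 (chr6:30172893-30175126) runs across this start on the other strand. The nearest protein-coding genes are Nrf1, 12459 bases beyond Mir182, and Ube2h, 41551 bases beyond Mir183.

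**Figure D1:**
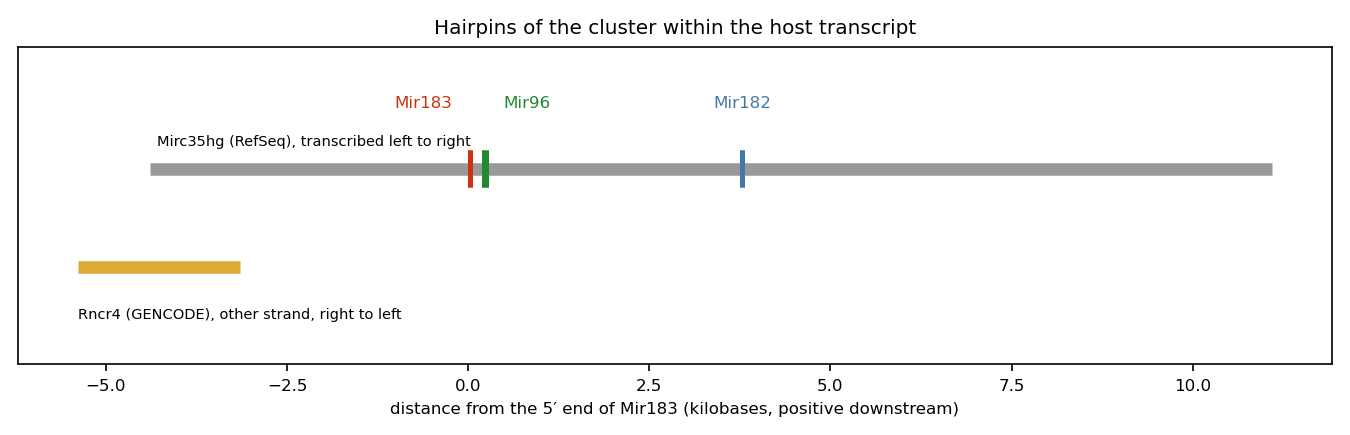
Positions of Mir183, Mir96 and Mir182 along the host transcript Mirc35hg, by distance from the 5′ end of Mir183. Mir183 and Mir96 are 116 bases apart, Mir182 lies 3453 bases further on, and Rncr4 is on the other strand.

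Since the members lie within 1 annotated transcript, its promoter is shown. The window runs from 250 bases before to 50 bases after the start of Mirc35hg (chr6:30174076-30174375, minus strand, RefSeq, GRCm38.p6), and matches to GGGCGG, the GC box, and to CACCTG, an E-box, on either strand are in capitals.
Mirc35hg promoter: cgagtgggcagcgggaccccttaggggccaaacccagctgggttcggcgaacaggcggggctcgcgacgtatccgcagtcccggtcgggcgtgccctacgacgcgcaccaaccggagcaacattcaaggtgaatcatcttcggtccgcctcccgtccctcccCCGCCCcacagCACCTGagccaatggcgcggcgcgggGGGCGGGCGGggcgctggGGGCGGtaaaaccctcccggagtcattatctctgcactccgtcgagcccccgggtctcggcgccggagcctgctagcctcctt
This window was 70.3% G and C and held 35 CpG dinucleotides, more than 93.0% of the 32851 promoters of the table. GGGCGG matched 4 times, with a pair of matches overlapping, and 35.7% of all promoters had a match. CACCTG matched 1 time, and 20.2% of all promoters had a match. No binding was measured, and the matches are descriptions of the sequence.

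The libraries held 12569939 to 32663566 reads (median 24008082). Values are normalised counts per 1000000 reads (CPM), scaled with trimmed mean of M values (TMM) factors, and a floor of 3 reads corresponded to 0.0593 to 0.471 CPM. The 5p arms of miR-10a and miR-10b took between 31.4% and 81.0% of the reads of a library, and the cluster between 0.333% and 1.18%. In each of the 36 pairs of replicates the libraries differed by more than counting noise. The labels do not say that the libraries of a group came from separate animals, so p-values measure the spread between these libraries only. Pkd1 and Pkd2 messenger RNA was not analysed here.

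The members differed in level by several orders of magnitude on the CPM scale. miR-182-5p ranked between 9 and 31 among all miRNAs of a library, with a median of 6308 CPM over the 36 libraries (range 2508 to 17746). miR-183-5p followed with a median of 694 CPM (417 to 1808), below miR-182-5p in every library. Next came miR-96-5p with a median of 23.8 CPM (9.23 to 145) and miR-183-3p with 14.8 CPM (2.61 to 61.1), whose ranges overlapped widely. The other 3p arms were rare. miR-182-3p had a median of 0.628 CPM and 0 to 41 reads in a library, and miR-96-3p had a median of 0.150 CPM and 0 to 11 reads. The 3p arm held at most 0.0322% of the reads of Mir182, 4.89% of those of Mir183 and 2.59% of those of Mir96 in any library. Adaptor ligation is known to differ between small RNA sequences, so the order of levels between members also carries this property of the assay.

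**Figure D2:**
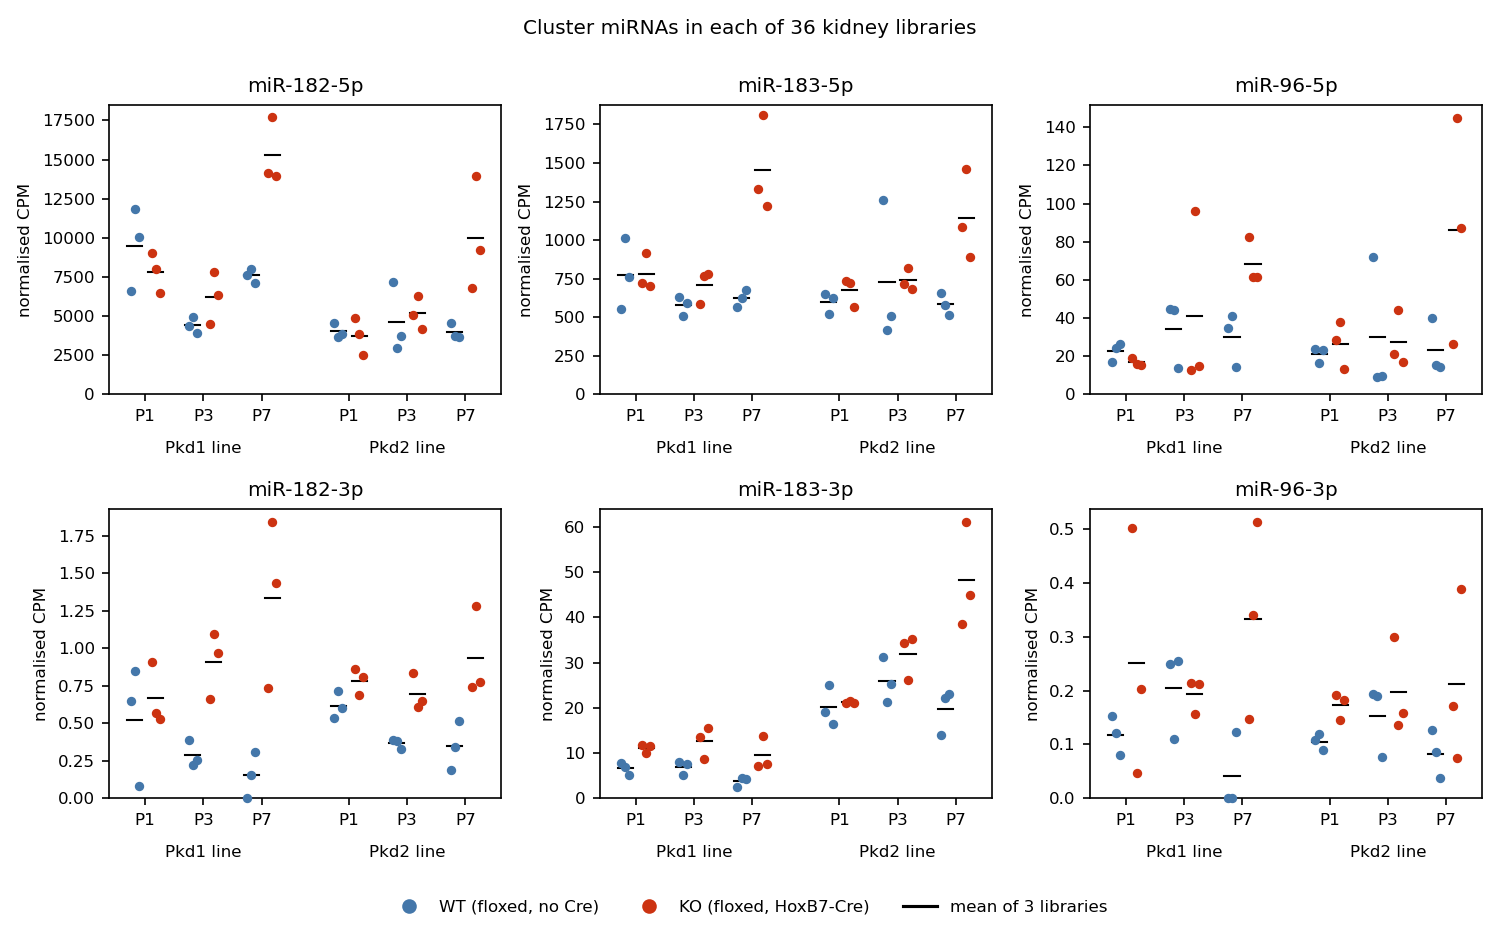
Normalised CPM of each member (vertical axes, linear, with different ranges) in the 36 libraries, by line and age; points are libraries (blue WT, red KO) and black lines are means of 3. At P7 the KO libraries of both lines lie above all WT libraries of the same line for miR-182-5p, miR-183-5p, miR-182-3p and miR-183-3p.

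The first comparison asked whether the cluster differed between KO and WT kidneys at P7. In the Pkd1 model miR-182-5p and miR-183-5p rose, and all 5 members that could be tested were higher in each KO library than in any WT library. The level of miR-182-5p was 7646, 8021 and 7141 CPM in the WT libraries and 14130, 17746 and 13941 CPM in the KO libraries. The groups were far apart compared with their spread, with a log2 difference of 1.06 (SE 0.22, adjusted p = 0.0482) by edgeR's quasi-likelihood test with Benjamini-Hochberg adjustment over 706 miRNAs. For miR-183-5p the WT libraries held 568, 628 and 679 CPM and the KO libraries 1331, 1808 and 1222 CPM. This was the clearest separation of the cluster in this model, with a log2 difference of 1.28 (SE 0.20, edgeR adjusted p = 0.00389). Without TMM scaling these groups did not overlap either, but with library totals in place of TMM factors edgeR called 0 of 706 miRNAs in this model, with log2 differences of 1.05 for miR-182-5p and 1.22 for miR-183-5p. As plain reads per 1000000, miR-183-5p stood at 230, 248 and 504 in WT and 620, 1092 and 580 in KO, and miR-182-5p at 3090, 3165 and 5305 in WT and 6581, 10711 and 6613 in KO.

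The less abundant members of the Pkd1 model did not pass the test at P7. miR-183-3p, the minor arm of Mir183, was at 2.61, 4.49 and 4.21 CPM in WT and 7.22, 13.7 and 7.68 CPM in KO, with a log2 difference of 1.39 (SE 0.30, edgeR adjusted p = 0.0528). miR-182-3p, the minor arm of Mir182, rested on few reads, namely 0, 1 and 5 in the WT libraries and 5, 27 and 14 in the KO libraries. Its fitted log2 difference of 2.91 (SE 0.69, edgeR adjusted p = 0.0848) depends on the prior count and is not a measured fold. miR-96-5p was at 34.7, 41.2 and 14.3 CPM in WT and 82.7, 61.5 and 61.5 CPM in KO. The groups were apart but the WT libraries spread widely, and the log2 difference was 1.25 (SE 0.64, edgeR adjusted p = 0.546). miR-96-3p, with 0, 0 and 2 reads in WT and 1, 5 and 5 in KO, was too rare to be tested within the model. Thus 2 of 5 tested members were called higher, where 0.425% of all miRNAs were, and 5 of 5 lay above WT without overlap, where 6.23% of all miRNAs did. The call of miR-183-5p held without any 1 of the 6 libraries (edgeR adjusted p between 0.00844 and 0.0402). That of miR-182-5p was lost without any 1 of the 6 (edgeR adjusted p between 0.0707 and 0.232).

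Both arms of Mir182 and of Mir183 rose at P7 in the Pkd2 model. The level of miR-182-5p was 4595, 3744 and 3674 CPM in WT and 6770, 13935 and 9227 CPM in KO. The KO libraries spread more widely than those of the Pkd1 model but stayed above WT, and the log2 difference was 1.38 (SE 0.32, edgeR adjusted p = 0.0159) over 746 miRNAs. For miR-183-5p the values were 659, 578 and 513 CPM in WT and 1083, 1462 and 891 CPM in KO, again without overlap (log2 difference 1.04, SE 0.31, edgeR adjusted p = 0.0371). The 3p arms followed. miR-183-3p was at 14.1, 22.2 and 23.2 CPM in WT and 38.4, 61.1 and 44.9 CPM in KO, with no overlap and a log2 difference of 1.35 (SE 0.24, edgeR adjusted p = 0.00647). miR-182-3p had 3, 8 and 14 reads in WT and 26, 17 and 22 reads in KO, with a log2 difference of 1.35 (SE 0.34, edgeR adjusted p = 0.0175).

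miR-96-5p was the exception among the tested members of the Pkd2 model. Its WT libraries held 39.9, 15.5 and 14.6 CPM and its KO libraries 26.5, 145 and 87.0 CPM. The lowest KO library lay within the WT range, and the log2 difference was 1.93 (SE 0.75, edgeR adjusted p = 0.0965). It became 2.36 without KO replicate 1, where it passed the test (edgeR adjusted p = 0.0468), 2.58 without WT replicate 1 and 1.28 without KO replicate 2. In total 4 of 5 tested members were called higher, where 8.98% of all miRNAs were, and 4 of 5 lay above WT without overlap, where 13.5% of all miRNAs did. With library totals in place of TMM factors edgeR called 7 of 746 miRNAs, against 94 of 746 with them, and 1 member, miR-182-5p (log2 difference 1.26). The call of miR-183-3p held without any 1 of the 6 libraries (edgeR adjusted p between 0.00479 and 0.0419). The calls of miR-182-5p, miR-182-3p and miR-183-5p were lost without some of them. Their edgeR adjusted p ran from 0.0115 to 0.0734, from 0.0200 to 0.0743 and from 0.04997 to 0.157. The count of called members was 1 without WT replicate 2 or KO replicate 3 and 2 without WT replicate 1 or 3. Calls over all miRNAs fell as well, from 94 to 11 and 4 in the former fits and to 52 and 11 in the latter. The study had picked miR-182-5p, miR-182-3p, miR-183-5p and miR-96-5p on these same libraries, so their direction at P7 is not independent evidence. The study also measured its picked miRNAs by quantitative RT-PCR in Pkd1 KO kidneys and reported these members as raised at P7. By in situ hybridization it reported miR-182-5p in the epithelial cells that line cysts of Pkd1 KO kidneys. Those measurements were not analysed here.

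The mean of the KO effects of both models was then fitted over all 36 libraries and 775 miRNAs, a test added after the data had been seen. At P7 5 of 6 members were called higher, where 3.48% of all miRNAs were. The log2 mean effect was 1.16 (SE 0.21, edgeR adjusted p = 0.000581) for miR-182-5p and 1.10 (SE 0.20, edgeR adjusted p = 0.000581) for miR-183-5p. The 3p arms gave 1.31 (SE 0.20, edgeR adjusted p = 7.74e-05) for miR-183-3p and 2.07 (SE 0.37, edgeR adjusted p = 0.000581) for miR-182-3p. miR-96-3p could be tested in this fit alone and had 1.93 (SE 0.56, edgeR adjusted p = 0.0322). Its value rests on the few reads given above and on 2, 2 and 1 reads in Pkd2 WT and 6, 1 and 11 in Pkd2 KO libraries, and when 1 library was left out its log2 mean effect ran from 1.58 without Pkd2 KO replicate 3 to 3.87 without Pkd1 WT replicate 3, and its edgeR adjusted p from 0.0168 to 0.139. miR-96-5p had 1.54 (SE 0.52, edgeR adjusted p = 0.0640), and passed the test without Pkd2 WT replicate 1 or Pkd2 KO replicate 1 (edgeR adjusted p = 0.0391 and 0.0304).

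**Figure D3:**
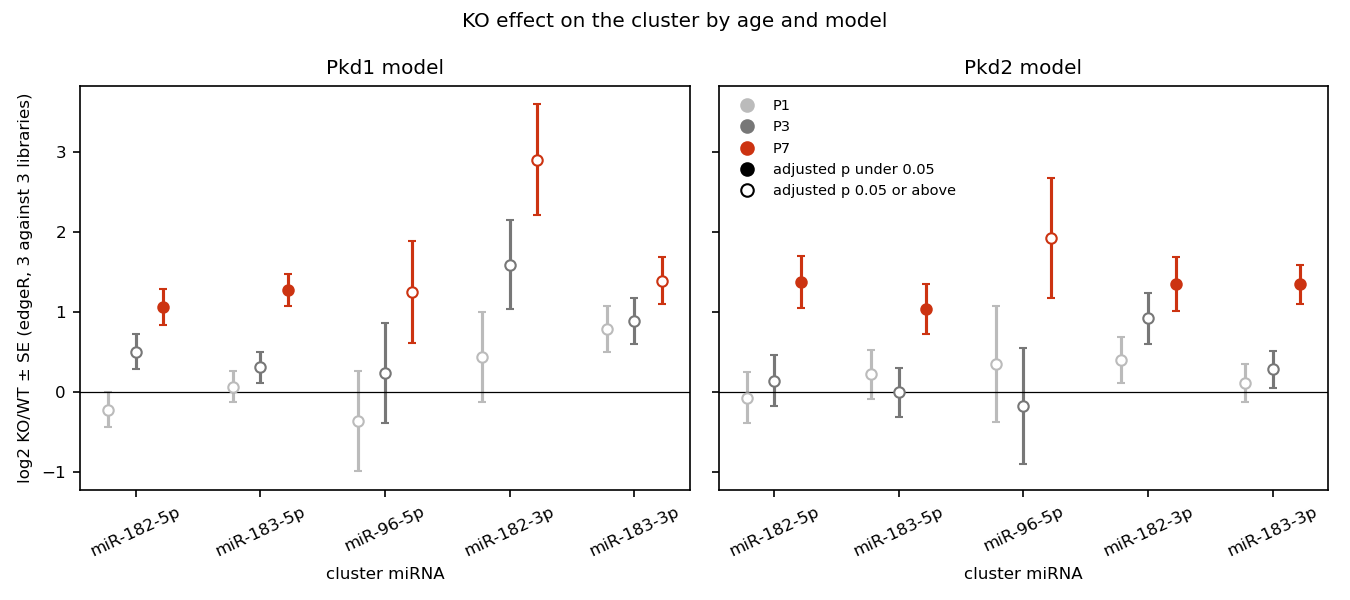
log2 KO/WT of the 5 tested members at P1, P3 and P7 (light grey, dark grey, red) in each model; points are edgeR estimates, bars are SE, and filled points have an adjusted p under 0.05. At P7 the estimates run from 1.04 to 2.91, and at P1 and P3 no point is filled.

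At P1 and P3 no member passed the test in either model, by edgeR or by DESeq2. An unadjusted edgeR p under 0.05 was found for 1 of 5 members in the Pkd1 model at P1 (8.36% of all miRNAs) and 3 at P3 (9.07%), and for 0 in the Pkd2 model at P1 (5.5%) and 1 at P3 (1.47%), each time with the higher level in KO. These were mostly 3p arms. In the Pkd1 model at P1 miR-183-3p was at 7.88, 7.03 and 5.24 CPM in WT and 11.7, 10.1 and 11.5 CPM in KO, without overlap (log2 difference 0.79, SE 0.29, edgeR adjusted p = 0.440). At P3 it was at 8.09, 5.28 and 7.54 CPM in WT and 13.6, 8.63 and 15.6 CPM in KO, again without overlap (log2 difference 0.89, SE 0.29, edgeR adjusted p = 0.382). On the CPM scale it was the 1 of 5 members above WT without overlap at P1, where 7.65% of all miRNAs were.

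miR-182-3p was apart at P3 in both models. The Pkd1 libraries held 11, 4 and 11 reads in WT (0.391, 0.222 and 0.254 CPM) and 28, 7 and 41 in KO (0.665, 1.10 and 0.969 CPM), with a log2 difference of 1.59 (SE 0.56, edgeR adjusted p = 0.452). The Pkd2 libraries held 6, 14 and 13 reads in WT (0.388, 0.381 and 0.329 CPM) and 28, 18 and 33 in KO (0.837, 0.609 and 0.652 CPM), with a log2 difference of 0.92 (SE 0.32, edgeR adjusted p = 1.00). On the CPM scale neither pair of groups overlapped. On this scale 2 of 5 members lay above WT without overlap in the Pkd1 model at P3, where 6.23% of all miRNAs were. In the Pkd2 model at P3 it was 1 of 5, where 2.28% were. There were 0 of 5 in the Pkd2 model at P1, where 4.29% of all miRNAs were. In the mean of both models at P3 miR-182-3p had the smallest edgeR p of the 775 miRNAs, 0.000467 unadjusted and 0.362 adjusted. For the abundant miR-182-5p and miR-183-5p, KO and WT overlapped at P1 and P3 in both models. In the Pkd1 model at P3 miR-182-5p was among the members with an unadjusted edgeR p under 0.05. It was at 4388, 4960 and 3907 CPM in WT and 4507, 7842 and 6339 CPM in KO. With 1 library left out its log2 difference ran from 0.34 to 0.67 (edgeR adjusted p between 0.194 and 0.891).

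Whether the KO effect changed with age was tested as an interaction. In the Pkd1 model the effect at P7 minus that at P1 was 1.28 (SE 0.31, edgeR adjusted p = 0.142) for miR-182-5p and 1.21 (SE 0.28, edgeR adjusted p = 0.142) for miR-183-5p on the log2 scale. In the Pkd2 model it was 1.45 (SE 0.45, edgeR adjusted p = 0.135) for miR-182-5p and 1.23 (SE 0.33, edgeR adjusted p = 0.110) for miR-183-3p. So edgeR called 0 of 5 members in either model, with 3 of 5 at an unadjusted p under 0.05 in each (12% and 16.9% of all miRNAs), while DESeq2 called 2 for Pkd1 and 1 for Pkd2. Over all miRNAs edgeR called 0.142% and 0.402% with a positive difference. Without Pkd1 P1 WT replicate 1 edgeR called 2 members in the Pkd1 model. For P7 minus P3 edgeR and DESeq2 called 0 of 5 in both models, with an unadjusted edgeR p under 0.05 for 1 member of the Pkd1 model (9.21% of all miRNAs) and 3 of the Pkd2 model (14.9%).

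The courses over the first postnatal week share libraries with the comparisons above. In WT kidneys of the Pkd1 line miR-182-5p fell between P1, with 6616, 11844 and 10055 CPM, and P3, with 4388, 4960 and 3907 CPM. The log2 difference was -1.05 (SE 0.22, edgeR adjusted p = 0.00789), and 10.6% of all miRNAs were called lower. From P3 to P7 it rose again, by 0.82 (SE 0.22, edgeR adjusted p = 0.0253), with 6.23% of all miRNAs called higher. This second call was lost without Pkd1 P3 WT replicate 1 or 3 or any 1 of the Pkd1 P7 WT libraries. In WT kidneys of the Pkd2 line miR-182-5p was at 4578, 3697 and 3861 CPM at P1 and 7176, 2936 and 3732 CPM at P3, which overlapped (log2 difference 0.23, SE 0.32, edgeR adjusted p = 0.795). The direct test of the difference between lines in this change gave 1.30 (SE 0.41, edgeR adjusted p = 0.147), added after seeing the data. Between P1 and P7 edgeR called no member in WT kidneys of either line, where it called 21.5% and 28.3% of all miRNAs. An unadjusted edgeR p under 0.05 was found for 1 member in each line, where 36.3% and 39.8% of all miRNAs had one. DESeq2 called 1 member in the Pkd1 line and 0 in the Pkd2 line.

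In KO kidneys members rose with age. In the Pkd1 model miR-182-5p was at 9023, 7998 and 6462 CPM at P1 and 4507, 7842 and 6339 CPM at P3, and every P7 library lay above these values. P7 exceeded P1 by 1.05 (SE 0.22, edgeR adjusted p = 0.00505) for miR-182-5p and by 0.98 (SE 0.20, edgeR adjusted p = 0.00439) for miR-183-5p on the log2 scale. miR-96-5p rose by 2.13 (SE 0.65, edgeR adjusted p = 0.0347), from 18.8, 16.2 and 15.5 CPM at P1 to 82.7, 61.5 and 61.5 CPM at P7, a call that was lost without any 1 of the 6 libraries (edgeR adjusted p between 0.0558 and 0.111). The difference was 0.96 (edgeR adjusted p = 0.0656) with library totals in place of TMM factors and 1.16 (edgeR adjusted p = 0.00180) with the miR-10 share as covariate, which was 57.3% to 61.8% at P1 and 67.9% to 79.0% at P7. The called members were 3 of 5 members, where 10.1% of all miRNAs were called higher. From P3 to P7 the rise was 1.38 (SE 0.22, edgeR adjusted p = 0.00106) for miR-182-5p and 1.10 (SE 0.20, edgeR adjusted p = 0.00168) for miR-183-5p, with 11.3% of all miRNAs called higher. In the Pkd2 model 2 of 5 members rose between P1 and P7, where 11.8% of all miRNAs did. miR-182-5p was at 4860, 3855 and 2508 CPM at P1, below all P7 libraries, and rose by 1.36 (SE 0.32, edgeR adjusted p = 0.00719). miR-183-3p was at 21.02, 21.5 and 21.1 CPM at P1 and rose by 1.12 (SE 0.24, edgeR adjusted p = 0.00353). With library totals in place of TMM factors the median of all miRNAs moved to -1.16 for Pkd1 KO and -0.97 for Pkd2 KO between P1 and P7, and the log2 differences of miR-182-5p and miR-183-5p in Pkd1 KO kidneys became -0.070 and -0.13, so these rises are relative to the other miRNAs.

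A direct test of the KO effect in the Pkd1 model minus that in the Pkd2 model called 0 of 6 members at each age by edgeR and by DESeq2, with no unadjusted edgeR p under 0.05. At P7 the difference of effects was -0.31 (SE 0.41) for miR-182-5p, 0.24 (SE 0.39) for miR-183-5p and 0.06 (SE 0.38) for miR-183-3p on the log2 scale. The widest was that of miR-182-3p, 1.53 (SE 0.76, edgeR adjusted p = 0.422). Over all miRNAs 0.387% were called at P7.

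Among WT kidneys the lines differed from each other in 2 members. miR-183-3p was higher in the Pkd2 line at all ages, by 1.59 (SE 0.27, edgeR adjusted p = 0.000196) at P1, 1.89 (SE 0.27, edgeR adjusted p = 6.69e-05) at P3 and 2.39 (SE 0.29, edgeR adjusted p = 7.35e-07) at P7 on the log2 scale. miR-182-5p was lower in the Pkd2 line at P1, with a log2 difference of -1.23 (SE 0.29, edgeR adjusted p = 0.00473), and at P7, with -0.92 (SE 0.29, edgeR adjusted p = 0.0350), and at P3 the difference was 0.06 (SE 0.29). The call at P7 was lost without Pkd2 P7 WT replicate 2 or 3 or any 1 of the Pkd1 P7 WT libraries, and with the miR-10 share as covariate (-0.50, edgeR adjusted p = 0.0997). miR-183-5p, the partner arm of miR-183-3p, was not called at any age, with log2 differences between -0.37 and 0.33. At P1, P3 and P7, 2, 1 and 2 of 6 members were called, where 15.2%, 2.71% and 11.4% of all miRNAs were. With library totals alone the median of all miRNAs moved to 0.91 at P1 and 0.86 at P7, where the log2 difference of miR-182-5p was -0.15 and -0.11. The labels give no sequencing batch, so the line and any difference in handling cannot be told apart.

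Ratios between members of the same library do not depend on its scaling. The 3p arm of Mir183 took between 2.09% and 4.84% of the hairpin's reads in the 9 Pkd2 WT libraries (3.57% ± 1.10, mean ± SD) and between 0.457% and 1.40% in the 9 Pkd1 WT libraries (0.900% ± 0.341). KO libraries gave the same order, with a range of 2.77% to 4.89% in the Pkd2 line and 0.540% to 2.26% in the Pkd1 line. Within a genotype no library of one line reached the range of the other. The difference was 2.67 percentage points in WT and 2.50 in KO (exact two-sided permutation p = 0.00025 in each, with lines permuted within ages, the smallest p possible, adjusted p = 0.00150 over 12 tests). This comparison was added after seeing the data. The widest 95% Wilson interval of the share in a library spanned 0.663 percentage points, from counting error only, with 4083 to 39169 reads of the hairpin. Within lines the share of KO and WT libraries overlapped at every age, and at P7 it was 3.37% ± 1.15 in WT and 4.08% ± 0.687 in KO of the Pkd2 line (exact permutation p = 0.5).

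miR-182-5p relative to miR-183-5p also differed between lines. The log2 ratio of their reads was 3.39 ± 0.387 (mean ± SD, 9 libraries) in Pkd1 WT and 2.76 ± 0.122 in Pkd2 WT (difference -0.63, exact permutation p = 0.0015, adjusted p = 0.00450). In KO it was 3.28 ± 0.228 and 2.77 ± 0.386 (difference -0.51, exact permutation p = 0.001, adjusted p = 0.00400). The ranges of the lines overlapped in both genotypes. The 3p share of Mir182 was higher in the Pkd2 line among WT libraries, 0.0113% ± 0.00489 against 0.00488% ± 0.00349 (exact permutation p = 0.00325, adjusted p = 0.00780), and the adjusted p was 0.0853 among KO libraries. Of the ratios to miR-96-5p and the 3p share of Mir96, the smallest exact permutation p was 0.0335, for miR-182-5p to miR-96-5p in KO, with an adjusted p of 0.0670.

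**Figure D4:**
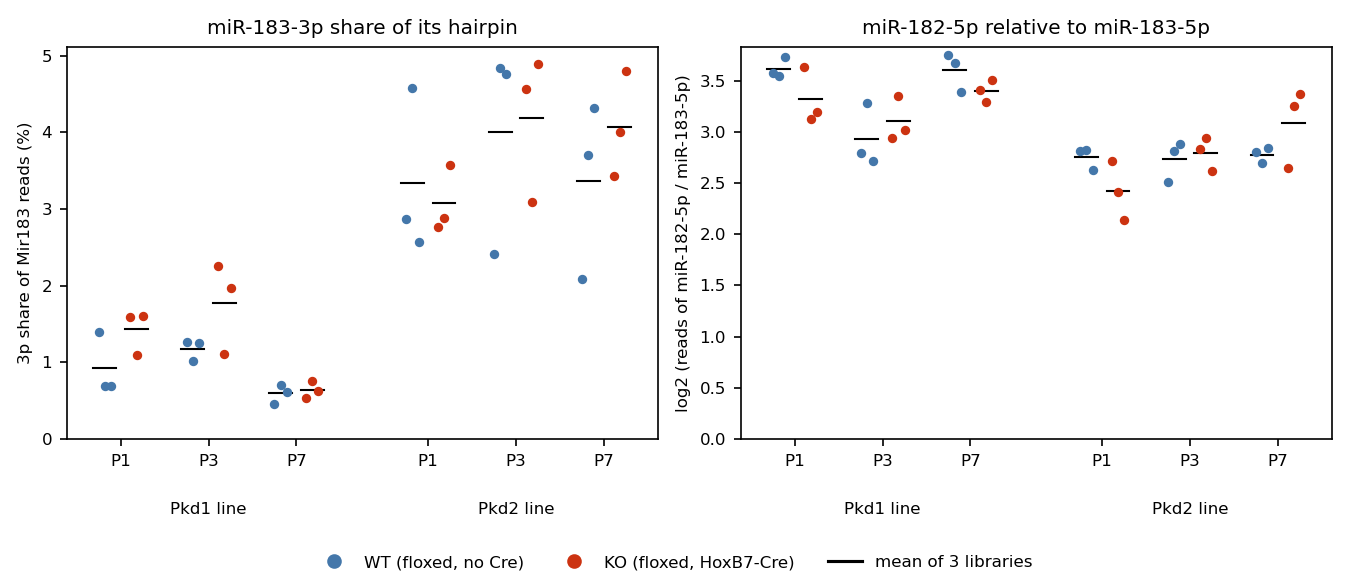
Left, miR-183-3p reads in percent of all Mir183 reads; right, log2 ratio of miR-182-5p to miR-183-5p reads; each point is a library (blue WT, red KO) and black lines are means of 3, by line and age. The 3p share lies between 2.09% and 4.89% in the Pkd2 line, and reaches at most 2.26% in the Pkd1 line.

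The proportions of the members to each other were also compared between KO and WT at P7. Over both models the KO minus WT difference in the log2 ratio of miR-182-5p to miR-183-5p was 0.05 (exact permutation p = 0.69, genotypes permuted within models). For miR-183-5p to miR-96-5p it was -0.45 (exact permutation p = 0.36), and for miR-182-5p to miR-96-5p -0.39 (exact permutation p = 0.32). No ratio moved beyond the spread between libraries. The 3p shares gave exact permutation p of 0.11 for Mir182, 0.425 for Mir183 and 0.52 for Mir96, and the adjusted p over the 6 measures was 0.624 or above. In the Pkd1 model the Mir182 share was 0% to 0.00433% in WT and 0.00522% to 0.0104% in KO at P7. At P3 it was 0.00448% to 0.00890% in WT and 0.0140% to 0.0153% in KO. These groups did not overlap (exact permutation p = 0.1, adjusted p = 0.9 at each age), whereas those of the Pkd2 model did. The share rests on few 3p reads. Single ages with 3 against 3 libraries cannot go below an exact p of 0.1.

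Markers of epithelium, including the collecting duct, were set beside the cluster. Their list holds miR-200a-3p, miR-200b-3p, miR-200c-3p, miR-141-3p and miR-429-3p, the miR-200 family, which maintains the epithelial state. At P7 it summed to 3394 to 5017 CPM in WT and 3316 to 4238 CPM in KO of the Pkd1 line, and to 6040 to 7461 CPM and 5936 to 6326 CPM in the Pkd2 line. KO and WT overlapped in both. In the Pkd1 model 0 of 5 passed the test (median log2 difference 0.15, all miRNAs 0.01). In the Pkd2 model 2 of 5 were called higher, where 8.98% of all miRNAs were (median -0.12, all miRNAs 0.02). These were miR-200c-3p, by 0.87 (SE 0.22, edgeR adjusted p = 0.0175), and miR-141-3p, by 0.82 (SE 0.20, edgeR adjusted p = 0.0163). The other members of the list had log2 differences of -0.12 (SE 0.14) for miR-200a-3p, -0.17 (SE 0.16) for miR-200b-3p and -0.31 (SE 0.19) for miR-429-3p.

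Relative to the summed reads of this list in the same library, both arms of Mir183 and miR-182-5p were higher in KO at P7, a comparison added after seeing the data. Of this sum miR-200c-3p, called higher in Pkd2 KO, was a small part, with a mean of 139 CPM over the 36 libraries. The cluster was not set against miR-200c-3p and miR-141-3p alone. The log2 ratio of miR-183-5p to the list was -2.63, -2.43 and -2.89 in WT and -1.37, -1.23 and -1.44 in KO of the Pkd1 line. In the Pkd2 line it was -3.20, -3.69 and -3.66 in WT and -2.45, -2.08 and -2.83 in KO. Neither line showed overlap, and the same held for miR-182-5p and miR-183-3p. Over both models the KO minus WT difference was 1.24 for miR-182-5p, 1.18 for miR-183-5p and 1.41 for miR-183-3p (exact permutation p = 0.005 in each, the smallest possible, adjusted p = 0.00667 over 4 tests). It was 1.63 for miR-96-5p (exact permutation p = 0.02), whose KO and WT libraries overlapped in the Pkd2 line. The part of epithelial cells in the rise was not tested.

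Other marker lists were also apart at P7. The nephron tubule list, with miR-192-5p, miR-194-5p and miR-215-5p, summed to 15713 to 27133 CPM in WT and 11196 to 12710 CPM in KO of the Pkd1 line, and to 13919 to 24053 CPM and 5583 to 11902 CPM in the Pkd2 line, so that KO lay below WT in both. In the Pkd2 model 2 of 3 were called lower, where 3.62% of all miRNAs were, miR-192-5p with a log2 difference of -1.13 (SE 0.34, edgeR adjusted p = 0.0392) and miR-194-5p with -0.95 (SE 0.21, edgeR adjusted p = 0.0147), and 0 of 3 in the Pkd1 model. In the Pkd2 line the list of red blood cells summed to 2211 to 2681 CPM in WT and 3447 to 5535 CPM in KO, and that of skeletal and heart muscle to 18.2 to 19.1 CPM and 26.2 to 105 CPM, with 0 of 3 called in each. The list of neurons and sensory organs, where the cluster is best known, summed to 275 to 342 CPM in WT and 298 to 416 CPM in KO of the Pkd1 line and to 216 to 248 CPM and 224 to 341 CPM in the Pkd2 line, which overlapped. No member of the lists of endothelium and smooth muscle, red blood cells, leukocytes, mesenchyme, skeletal and heart muscle, liver, neurons and sensory organs, or endocrine cells was called at P7 in either model by edgeR. The part of these cell types in the rise of the cluster was not tested.

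The level of miR-96-5p moved with the miR-10 share of the library. The highest miR-96-5p levels were those of Pkd2 P7 KO replicate 2 and Pkd1 P3 KO replicate 2, where miR-10a-5p and miR-10b-5p took 74.1% and 79.8% of the reads. After group means were subtracted, Pearson's r between log2 CPM of miR-96-5p and this share was 0.96 over 36 libraries (Spearman's rho 0.96), and 0.95 without the 2 libraries farthest from the median. For miR-182-5p it was 0.75 (rho 0.72), for miR-183-5p 0.50 (rho 0.43) and for miR-183-3p -0.29 (rho -0.26). These are descriptions, since the points share libraries, scaling and composition. At P7 the miR-10 shares of KO and WT overlapped in both lines. With this share as a covariate, an alternative chosen after seeing the data, miR-96-5p differed by 1.32 for Pkd1 (edgeR adjusted p = 0.00256) and by 1.39 for Pkd2 (edgeR adjusted p = 0.000487) at P7 on the log2 scale, and 5 of 5 members were called in each. Calls over all miRNAs also rose, from 3 of 706 to 20 of 706 for Pkd1 and from 94 of 746 to 168 of 746 for Pkd2.

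**Figure D5:**
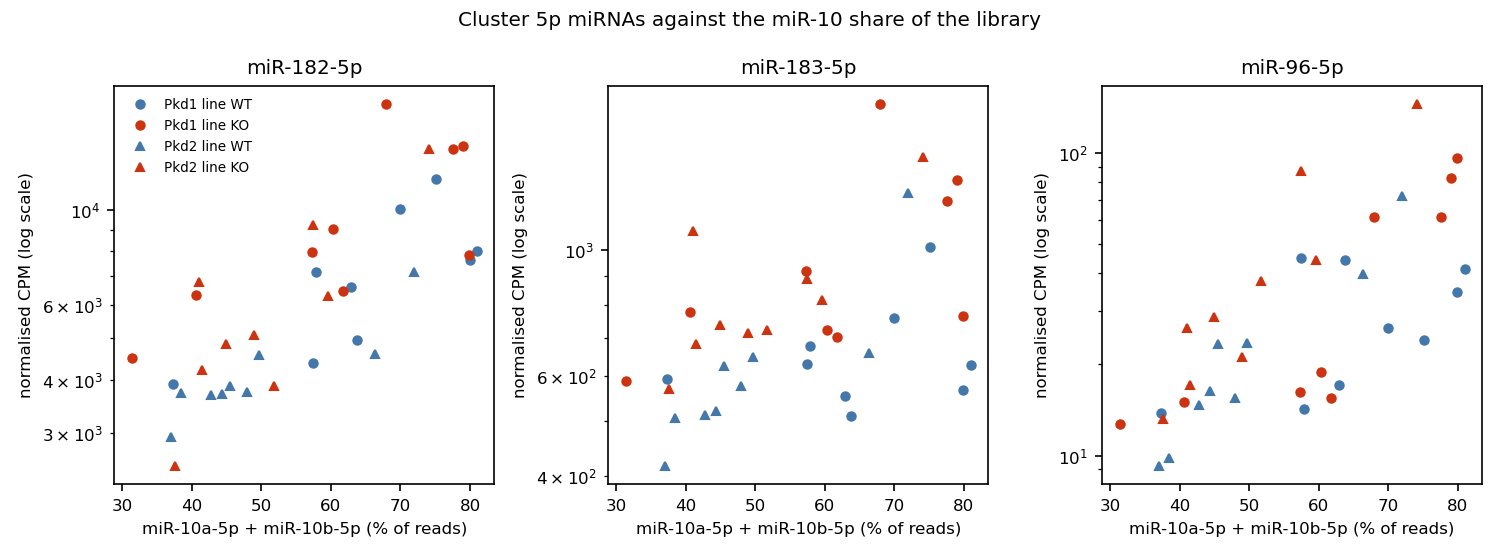
Normalised CPM (log axis) of the 5p members against the share of reads on miR-10a-5p and miR-10b-5p (percent) in 36 libraries; circles are the Pkd1 line, triangles the Pkd2 line, blue WT and red KO. Within groups r is 0.75 for miR-182-5p, 0.50 for miR-183-5p and 0.96 for miR-96-5p.

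The members were not equally alike over the libraries. Pearson's r of log2 CPM over the 36 libraries was 0.82 between miR-182-5p and miR-183-5p (rho 0.76), 0.64 between miR-182-5p and miR-96-5p (rho 0.63) and 0.67 between miR-183-5p and miR-96-5p (rho 0.62). The arms of 1 hairpin were less alike, with r of 0.15 between miR-183-5p and miR-183-3p and 0.24 between miR-182-5p and miR-182-3p. The 3p arms miR-182-3p and miR-183-3p had an r of 0.51, and of 0.61 with group means subtracted. The points share libraries, ages and lines, and the counts of miR-182-3p are sparse.

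Outside the cluster, 320 miRNAs with a mean of at least 10 CPM were ranked by r over the 36 libraries. miR-182-5p was most like miR-224-5p (r 0.85, rho 0.83), miR-10b-5p (r 0.80, rho 0.80) and miR-21a-5p (r 0.79, rho 0.68). miR-183-5p was most like miR-224-5p (r 0.77, rho 0.68), miR-200c-3p (r 0.76, rho 0.78) and miR-21a-5p (r 0.72, rho 0.49). miR-96-5p was most like miR-155-5p (r 0.87, rho 0.83), miR-221-5p (r 0.87, rho 0.80) and miR-145a-5p (r 0.87, rho 0.84). With group means subtracted, the nearest were miR-30d-5p (r 0.87, rho 0.82), miR-222-3p (r 0.84, rho 0.80) and miR-224-5p (r 0.83, rho 0.83) for miR-182-5p. For miR-183-5p they were miR-191-5p (r 0.76, rho 0.63), miR-361-5p (r 0.70, rho 0.63) and miR-99a-5p (r 0.69, rho 0.49), and for miR-96-5p miR-221-5p (r 0.97, rho 0.96), miR-10a-5p (r 0.96, rho 0.93) and miR-10b-5p (r 0.95, rho 0.95). These values carry no test.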

How the data were processed

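The authors sequenced small RNA of whole kidneys, trimmed the 3′ adaptor, kept reads over 17 bases and matched them to miRBase 21 and mm10 with miRDeep2, whose version is not given in the sources used here. They deposited raw read counts per mature miRNA and hairpin, with no normalization. The table had 2061 rows for 1915 mature miRNAs, and the 83 that had several rows were represented by their most abundant row.

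Counts were fitted with edgeR 4.0.16 in R 4.3.3 (TMM factors, quasi-likelihood test, Benjamini-Hochberg adjustment over all miRNAs that reached 10 counts in 3 or more libraries, threshold 0.05), with 1 fit for the 18 libraries of each model and 1 for all 36. Fitted log2 differences use the default prior count of edgeR. The log2 CPM values behind the correlations use a prior count of 2. Groups came from the sample titles. Ratios were compared by exact permutation tests (Python 3.11.15, SciPy 1.17.1). The fit was also run on simulated counts with known folds, drawn for each miRNA independently. These held no shifts of the miR-10 share, so the run cannot show how the fit handles such shifts. Every member was named, with miRNAs that share a seed, the marker lists and the 3 miRNAs most like each 5p member. Members, lists and tests were chosen with earlier results of these data known. Alternatives were other scalings, no filter, DESeq2 1.42.0, summed rows, a replicate block, fewer libraries, each library left out and, added after seeing the data, the miR-10 share as covariate. Library totals ran from 12569939 to 32663566 reads, and intervals cover counting error only.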

Additional observations from a re-analysis of the deposited data

How the results depend on the processing

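Of the comparisons of KO and WT at P7, the number of called members in the Pkd1 model was 2 as reported, 1 with DESeq2 size factors, without the filter or with rows of several hairpins summed, 0 with library totals alone, 4 with DESeq2 and 5 with the miR-10 share as covariate, and it was 1 without any 1 library. In the Pkd2 model it was 4 as reported, 1 with library totals alone, 5 with DESeq2, without the filter or with the miR-10 share as covariate, 3 with the compared libraries alone, and 1 to 5 without 1 library. Over all miRNAs library totals alone left 0 calls for Pkd1 and 7 for Pkd2, against 3 and 94 as reported. DESeq2 made 17 and 157 calls over all miRNAs, and the fit with the covariate 20 and 168, so calls rose beyond the cluster too. For Pkd1, DESeq2 size factors, no filter and summed rows each made 2. For Pkd2 there were 103 without the filter and 57 with the compared libraries alone. With 1 library left out, calls over all miRNAs ran from 2 to 8 for Pkd1 and from 4 to 142 for Pkd2. The count for the mean of both models at P7 was 5 as reported and 4 to 6 without 1 library. Over all miRNAs 62 were called as reported and 30 to 81 without 1 library, in either direction. At P3 DESeq2 called 1 member for this mean.

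With library totals alone the counts were 0 for Pkd1 WT P3 against P1, 2 for Pkd1 WT P7 against P3, 1 for Pkd1 KO P7 against P3, 0 for Pkd1 and Pkd2 KO P7 against P1, 3 for Pkd2 WT P7 against P1, and 1, 0 and 1 for the lines at P1, P3 and P7. Under this scaling Pkd1 KO P7 against P1 was -0.070 for miR-182-5p and -0.13 for miR-183-5p on the log2 scale, and Pkd2 KO P7 against P1 was -0.28 for miR-183-5p. DESeq2 gave 2 for Pkd1 WT P7 against P3, 1 for Pkd1 WT P7 against P1, 2 and 1 for the Pkd1 and Pkd2 effects at P7 minus P1, 1 for Pkd2 KO P7 against P3 and 1 for the difference between lines in WT P3 against P1. Without the filter the counts were 0 for Pkd1 WT P7 against P3 and 1 for the lines at P7. TMM factors without miR-10 gave 2 for Pkd1 WT P7 against P3, and the compared libraries alone gave 0 for Pkd1 WT P3 against P1. With the miR-10 share as covariate, chosen after seeing the data, the counts were 2 for Pkd1 WT P3 against P1 and P7 against P3, 1 for Pkd1 WT P7 against P1, Pkd1 KO P3 against P1, Pkd1 effect P7 minus P3, Pkd2 WT P7 against P1, both Pkd2 changes of effect and the line difference in WT P3 against P1, and 2 for Pkd2 KO P7 against P3. Where these counts changed, the cause was not tested.

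Leaving out 1 library gave 0 to 2 for the Pkd1 effect at P7 minus P1 (2 without Pkd1 P1 WT replicate 1), 0 to 1 for Pkd1 WT P7 against P1 (1 without Pkd1 P1 WT replicate 3), 0 to 1 for Pkd1 WT P7 against P3, 0 to 1 for Pkd2 KO P7 against P3 (1 without Pkd2 P7 KO replicate 1), 0 to 1 for Pkd2 WT P7 against P1 (1 without Pkd2 P7 WT replicate 3) and 1 to 2 for the lines at P7. The KO minus WT difference of miR-182-5p to miR-183-5p at P7 ran from -0.017, without Pkd2 P7 KO replicate 3, to 0.17. That of the 3p share of Mir182 ran from 0.00221 to 0.00470 percentage points, with an exact permutation p of 0.02 without Pkd2 P7 WT replicate 3.

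Same-numbered KO and WT libraries had correlated deviations above 0.1 in 7 of 18 pairs (range -0.49 to 0.46), so the numbers were not taken as pairs. With a replicate block 2 members were called for Pkd1 at P7, miR-183-5p and now miR-183-3p (edgeR adjusted p = 0.0462) but not miR-182-5p (0.156), and 3 for Pkd2, without miR-183-5p (0.0625). Over all miRNAs it called 3 for Pkd1 and 72 for Pkd2. With libraries paired by number the 3p share of Mir183 differed by 0.375 percentage points between KO and WT (exact sign-flip p = 0.03125, the smallest possible). Without this pairing the exact permutation p was 0.425. miR-182-3p and miR-96-3p, with at most 41 and 11 reads in a library, are limited by depth.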
